A study of Mus musculus with 6 samples.

Results

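The astrocyte genes of glutamate uptake and coupling are 9 genes: Slc1a2 and Slc1a3, which encode the glial glutamate transporters GLT-1 and GLAST; Glul, glutamine synthetase; Gja1 and Gjb6, the connexins Cx43 and Cx30; and Aldh1l1, Aldoc, Slc4a4 and Atp1b2, which serve folate metabolism, glycolysis, bicarbonate transport and the sodium pump. They were followed through every probe set whose single gene symbol is one of these names, which gave 31 of the 45037 non-control probe sets on the arrays. A further probe set carried the symbol of Slc1a2 together with another gene and was left out. Hippocampal RNA came from 6 mice of 2 to 3 months. The 3 controls, littermates by their labels, had the genotype IκBαfl/- and the 3 IκBα-deficient animals the genotype IκBαfl/-;Nestin-Cre, so both groups already lacked 1 functional allele of Nfkbia, the gene of the NF-κB inhibitor IκBα, and they differed by the recombinase. Nestin-Cre acts in neural progenitors and therefore in astrocytes and neurons alike, while microglia and vessels keep the floxed allele. The controls carried no Cre, so an effect of the recombinase itself and the loss of IκBα cannot be told apart. Tissue was whole hippocampus, in which fewer astrocytes and less RNA per astrocyte cannot be told apart either.

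Astrocytes clear glutamate from the synaptic cleft through GLT-1 and GLAST, convert it to glutamine with glutamine synthetase, and return the glutamine to neurons. Uptake is driven by the sodium gradient, to which the sodium pump with its glial β2 subunit contributes, and bicarbonate cotransport buffers the accompanying change in pH. Cx43 and Cx30 join astrocytes into a network that spreads potassium, glutamate and metabolites. Cx43 is also made by meningeal cells and by other cell types outside the brain parenchyma.

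The stretches of promoter below are shown because the question of the study concerns an inhibitor of NF-κB. RefSeq windows (GRCm38.p6) were at hand for 8 of the 9 genes, 10 windows in all, and the 250 bases before each annotated start were searched on both strands for the NF-κB consensus and for the AP-1 motif TGANTCA. The NF-κB consensus was in 0 of the 10 windows, while 7.25% of all 32851 windows held it. The window of Nfkbia held 1 match, on the strand opposite to the gene. AP-1 letters stood in 1 of the 10 windows, that of Gja1, and in 6.75% of all windows. Capitals mark the match in each stretch.
Nfkbia, chr12:55492648-55492696, minus strand: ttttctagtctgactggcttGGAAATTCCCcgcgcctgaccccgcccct
Gja1, chr10:56377261-56377299, plus strand: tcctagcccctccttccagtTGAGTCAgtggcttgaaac
These are matches of letters in short windows and say nothing on binding.

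Values are RMA log2 values, differences are IκBα-deficient minus control, and each group has n = 3 arrays. The deleted gene was lower on all deficient arrays by its brightest probe set (Nfkbia 1420088_at), at 10.35 ± 0.04 in controls and 8.95 ± 0.25 in deficient animals (SD), a difference of -1.40 ± 0.12 (SE). Array medians lay between 6.08 and 6.12. Animals differed in marker RNA of neighbouring tissue. The amount of such tissue and an effect of genotype on these genes cannot be told apart. The mean of 10 choroid plexus markers was 5.75 to 7.84 in controls and 7.70 to 8.68 in deficient animals, with 10 of 10 higher, and that of 12 meninges markers was 7.19 to 7.84 against 7.77 to 8.81, with 12 of 12 higher. IκBα-deficient array 2 had the highest meninges mean and a mean gap of 1.90 between the 3′ and 5′ control probe sets, beside 1.01 to 1.26 on the other 5 arrays. By transcript the gap on this array was 1.53 for 18S RNA, 2.64 for β-actin and 1.4 for Gapdh, each above all other arrays. For the transferrin receptor it was 0.51, within the 0.43 to 0.67 of the others, and for pyruvate carboxylase 3.44 beside 3.1 to 3.41.

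None of the 31 probe sets passed the threshold, an adjusted p under 0.05 over all probe sets (limma, Benjamini-Hochberg), and the lowest adjusted p among them was 0.9999. Over all genes 3 probe sets passed, all of them of Nfkbia, or 0.00666%. At an unadjusted p under 0.05 stood 3 of the 31 (9.68%), where 3.34% of all probe sets did. Of these, 0 were higher, beside 2.15% of all, and 3 were lower, 1 each of Slc1a2, Aldoc and Atp1b2, beside 1.19% of all. Leaving out control array 3, or the second deficient array, brought the count of 3 to 1. Without the third deficient array the count stayed at 3, with 2 higher and 1 lower. The groups did not overlap for 6 of the 31 (19.4%), beside 8.45% of all. Of these 1 was higher, beside 4.76% of all, and 5 were lower, beside 3.68%. Leaving out 1 array raised that count, to 14 for control array 2 and to 11 for the third deficient array. Smaller groups separate more easily, and the share of all probe sets with 1 array left out was not counted. By direction alone 14 probe sets were higher and 17 lower, with a median difference of -0.027, beside -0.0005 over all probe sets.

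The range left by these data can be read from the intervals. By the brightest probe set of each gene, 4 genes were higher and 5 lower, with differences from -0.11 for Slc1a2 to 0.07 for Gja1. Their 95% intervals, each for 1 probe set alone, all lay between -0.279 and 0.277, so the widest change that any of them held was 1.21-fold. This holds for the brightest probe sets only. Intervals of others of the same genes reached further, to -0.572 for Glul 1426235_a_at and to 0.439 for Gja1 1438945_x_at. That of Slc1a3 1426341_at ran from -0.919 to 0.508. The brightest probe sets of Aldoc, Slc1a2, Glul and Gja1 had means of 13.91, 13.59, 13.27 and 12.97, at percentiles from 99.1 to 99.9 of all probe sets. Whether differences are compressed at such high values was not tested. The spread of members between animals was not far from that of all probe sets. The median SD of a member probe set was 0.098 in controls and 0.096 in deficient animals, beside 0.092 and 0.116 over all probe sets.

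**Figure D1:**
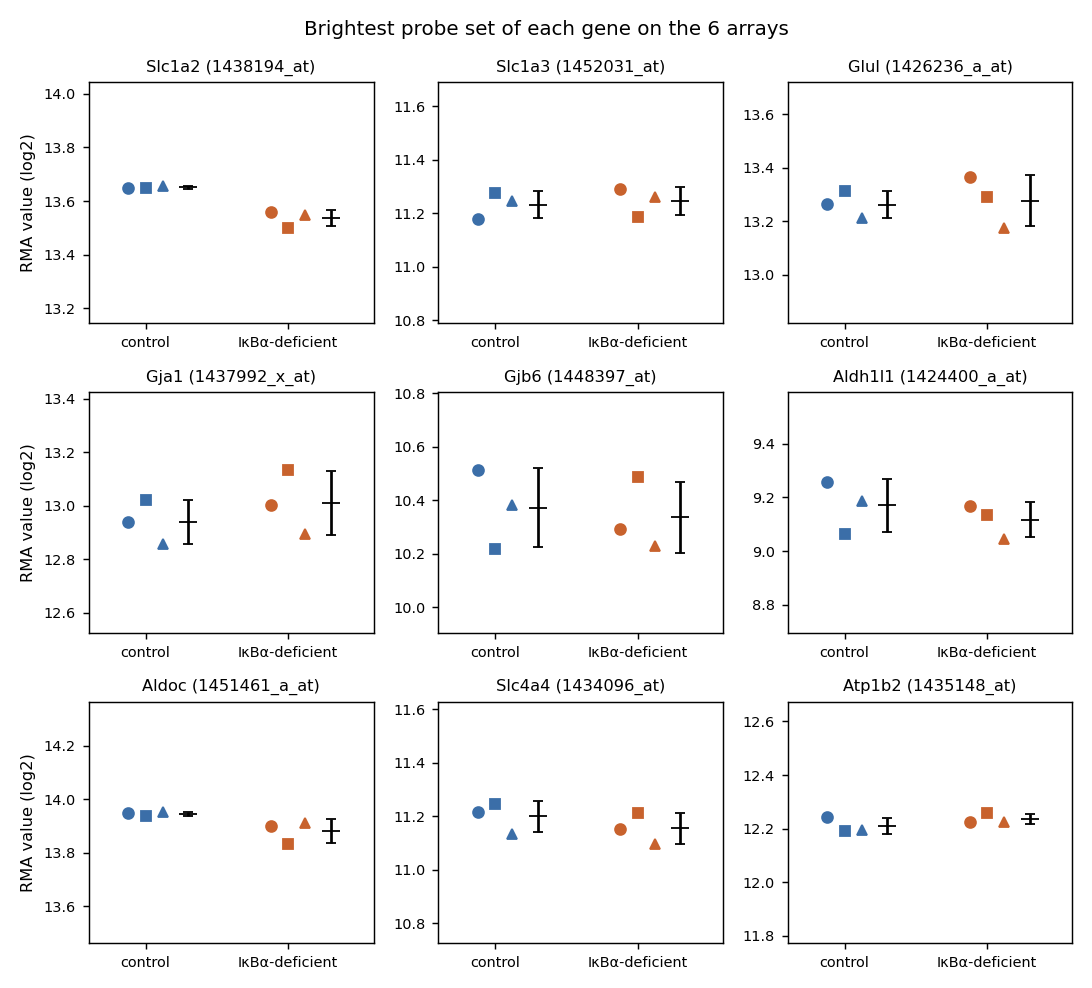
RMA log2 value on each of the 6 arrays (y axis, 0.9 log2 units high in each panel) for the brightest probe set of each of the 9 genes, with controls in blue and IκBα-deficient animals in orange. Circles, squares and triangles are arrays 1, 2 and 3 of a group, which have no order between groups, and the black bars are the mean and SD. Slc1a2 and Aldoc are the 2 genes whose groups do not overlap, both lower in deficient animals.

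Slc1a2 carries most of the glutamate uptake of the forebrain. Its brightest probe set, 1438194_at, was at 13.648, 13.647 and 13.657 in controls and at 13.560, 13.501 and 13.548 in deficient animals. All 3 deficient arrays lay below all controls, which were nearly identical. The difference was -0.114 ± 0.064 (SE), 1.08-fold lower, with a 95% interval from -0.264 to 0.035 and an unadjusted p of 0.116 (limma). The SD was 0.005 in controls and 0.031 in deficient animals, and the moderated test, which borrows spread from all probe sets, used a larger error than these. The difference stayed between -0.126 and -0.090 over all 20 alternatives run. Several of these change only the test or the probe sets in it and cannot change a difference. Over the 20 alternatives the unadjusted p of 1438194_at ran from 0.0105 to 0.326, and its lowest adjusted p was 0.837 (limma).

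The other 4 probe sets of Slc1a2 were also lower on average, by values from -0.018 to -0.230. Probe set 1459014_at was at 7.32, 7.17 and 7.38 in controls and at 7.21, 6.94 and 7.03 in deficient animals, so 1 deficient array lay within the control range. It differed by -0.230 ± 0.096 (SE), 1.17-fold lower, with an unadjusted p of 0.046 and an adjusted p of 0.9999 (limma). With the meninges mean as a covariate this difference was -0.118, and without IκBα-deficient array 2 it was -0.169. It was wider, at -0.310, with the choroid plexus mean as a covariate, and -0.304 without IκBα-deficient array 1. Probe sets 1451627_a_at (-0.027) and 1433094_at (-0.018) turned to 0.007 and 0.032 when control array 1 was left out, while 1439940_at (-0.107) did not turn in any alternative. All 5 probe sets read 1 gene and are not independent.

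Slc1a3 encodes GLAST, the transporter that astrocytes share with radial glia and neural progenitors. Its brightest probe set, 1452031_at, was at 11.18, 11.27 and 11.25 in controls and at 11.29, 11.19 and 11.26 in deficient animals, wholly overlapping. The difference was 0.014 ± 0.070 (SE), with a 95% interval from -0.149 to 0.176. Of its 6 probe sets 5 were higher and 1 lower, and 0 had an unadjusted p under 0.05 (limma). The largest difference of the higher ones was that of 1443749_x_at, at 10.52, 10.74 and 10.39 in controls and at 10.75, 10.90 and 10.54 in deficient animals, 0.177 ± 0.123 (SE) with overlapping groups. That difference was 0.096 without control array 3, 0.092 without the second deficient array and 0.001 with the meninges mean as a covariate. Probe sets 1426340_at (0.077), 1439072_at (0.020) and the dim 1440491_at (0.024) differed by less.

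The 1 lower probe set of Slc1a3, 1426341_at, shows how a single array can set a mean. It was at 8.87, 8.64 and 8.83 in controls and at 8.98, 7.77 and 8.98 in deficient animals, of which the lowest is array 2, the array with the widest 3′ to 5′ gap. The other 2 deficient arrays were above all controls. The difference was -0.206 ± 0.306 (SE) with all arrays, 0.200 without IκBα-deficient array 2, and 0.097 with the 3′ to 5′ gap as a covariate. The other bright probe sets of the gene had no drop of that size on that array. Probe set 1426340_at was at 11.04 there beside 11.25 and 11.06, and 1452031_at at 11.19 beside 11.29 and 11.26. Both were lowest there among deficient arrays, while 1443749_x_at was highest, at 10.90.

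Glul, which makes glutamine from glutamate and ammonia, had 2 probe sets that differed in sign. The brighter, 1426236_a_at, was at 13.26, 13.31 and 13.21 in controls and at 13.36, 13.29 and 13.17 in deficient animals, a difference of 0.014 ± 0.077 (SE) with overlapping groups. The second, 1426235_a_at, was at 10.66, 10.41 and 10.62 in controls and at 10.47, 10.02 and 10.43 in deficient animals. It differed by -0.258 ± 0.135 (SE), with an unadjusted p of 0.0946 (limma). Its lowest value was again on IκBα-deficient array 2, and the difference was -0.115 without that array and -0.049 with the meninges mean as a covariate. The difference was wider, at -0.391, with the choroid plexus mean as a covariate, and -0.340 without IκBα-deficient array 1. With the 3′ to 5′ gap as a covariate the difference was -0.141. This gap was widest on array 2, so the fit cannot tell it apart from other traits of that array.

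**Figure D2:**
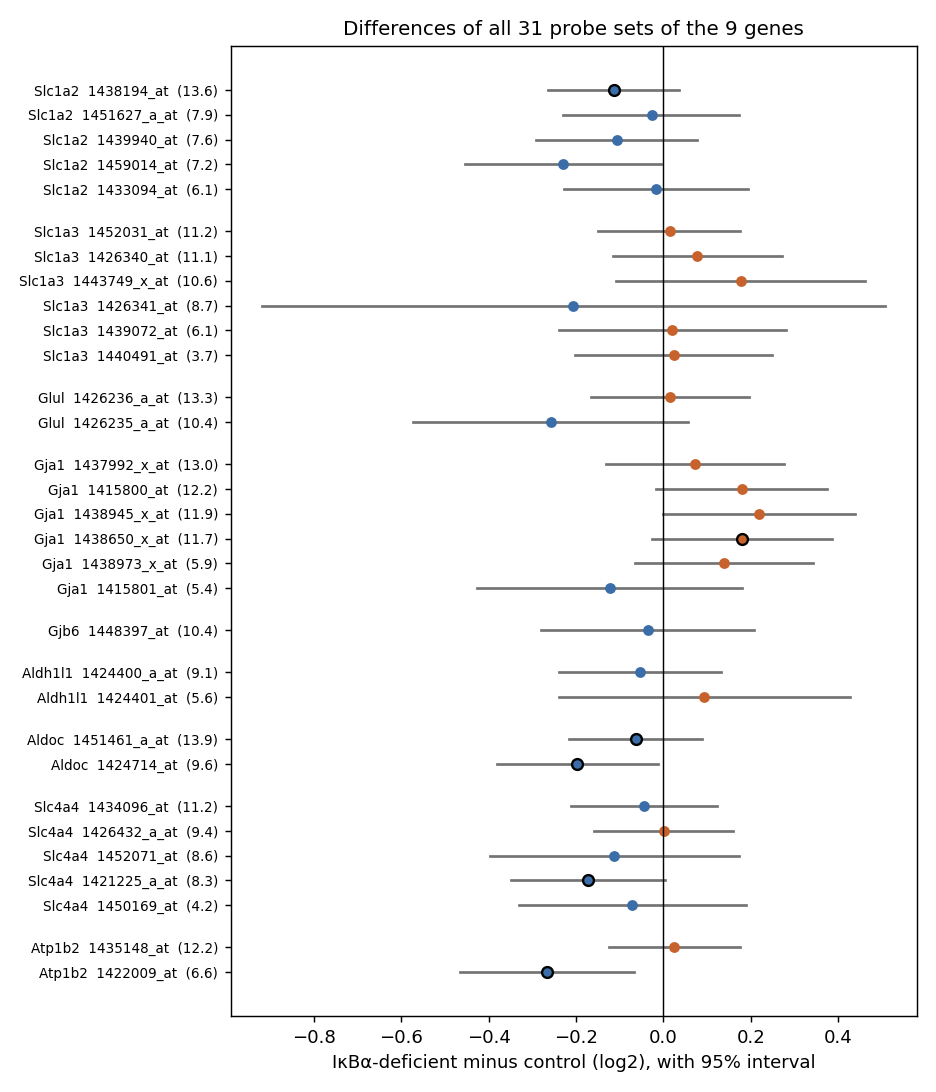
Difference between IκBα-deficient and control arrays (x axis, log2) for each of the 31 probe sets, grouped by gene with the brightest at the top of each group; the number in brackets is the mean over the 6 arrays. Lines are 95% intervals of the moderated fit, blue points are lower and orange points higher, and a black rim marks the 6 probe sets whose groups do not overlap. The interval of the Slc1a3 probe set 1426341_at, from -0.919 to 0.508, is the widest.

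Cx43, the product of Gja1, forms the main gap junction channel of astrocytes and also hemichannels to the outside. Of 6 probe sets 5 were higher, by 0.073 to 0.219, and 1 was lower. The lower one, 1415801_at (-0.123), and 1438973_x_at (0.139) had control means of 5.47 and 5.78.

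For 1438650_x_at the values were 11.69, 11.73 and 11.51 in controls and 11.81, 11.92 and 11.74 in deficient animals, the only probe set of the 9 genes whose deficient values all lay above the controls. The gap was narrow, since the lowest deficient value exceeded the highest control by less than the SD of either group. Its difference was 0.180 ± 0.088 (SE), 1.13-fold higher, with an unadjusted p of 0.0777 (limma). Without control array 3 the difference was 0.112.

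Probe set 1438945_x_at had the widest higher difference of the 31, at 0.219 ± 0.094 (SE), 1.16-fold, with an unadjusted p of 0.0504 and an adjusted p of 0.9999 (limma). Its values were 11.85, 11.95 and 11.68 in controls and 12.04, 12.14 and 11.947 in deficient animals, so the lowest deficient array and the highest control array, at 11.948, were level. Probe set 1415800_at, whose ID marks no shared probes, was at 12.11, 12.23 and 12.09 against 12.42, 12.34 and 12.20, a difference of 0.179 ± 0.084 (SE) with an unadjusted p of 0.0686 (limma). The brightest, 1437992_x_at, was at 12.94, 13.02 and 12.86 against 13.00, 13.14 and 12.90, a difference of 0.073 ± 0.088 (SE) with overlapping groups, and it ran from 0.011 to 0.131 with 1 array left out. An ID ending in _x_at marks a probe set with probes that may also match other transcripts, and 4 of the 6 are of this kind.

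The arrays with the lowest and the highest meninges mean had low and high values of these probe sets. Control array 3, with the lowest meninges mean (7.19), had the lowest value for each of the 4 bright Gja1 probe sets among controls. IκBα-deficient array 2, with the highest mean (8.81), had the highest value of all 6 arrays for 3 of the 4. Control array 2 and IκBα-deficient array 1 had level meninges means (7.84 and 7.83). They were at 12.23 and 12.42 for 1415800_at, 11.95 and 12.04 for 1438945_x_at, 11.73 and 11.81 for 1438650_x_at, and 13.02 and 13.00 for 1437992_x_at. With the meninges mean as a covariate the difference was 0.101 for 1438945_x_at, 0.071 for 1438650_x_at, 0.138 for 1415800_at and -0.039 for 1437992_x_at, each smaller than without it or turned. Meninges markers were also higher in deficient animals on average, so this fit cannot fully tell them apart from genotype. The cause was not tested. Gjb2, the connexin Cx26 of astrocytes and meningeal cells, was at 6.81, 6.99 and 6.53 in controls and 7.00, 7.98 and 6.93 in deficient animals, with its highest value on the same array 2.

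Gjb6, the Cx30 partner of Cx43 in astrocyte junctions, had a single probe set. Probe set 1448397_at was at 10.51, 10.22 and 10.38 in controls and at 10.29, 10.49 and 10.23 in deficient animals. The groups overlapped fully, and the difference was -0.035 ± 0.105 (SE), with a 95% interval from -0.279 to 0.208. Leaving out control array 1 turned it to 0.035, and leaving out the third deficient array turned it to 0.018. A difference between the 2 connexin genes was not tested.

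**Figure D3:**
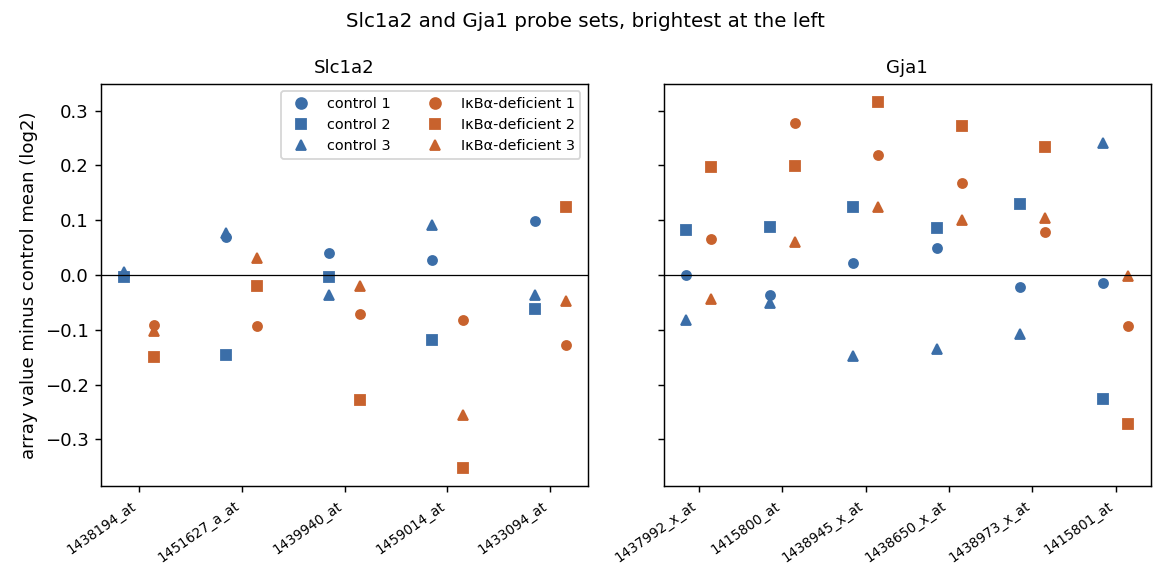
Array value minus the mean of the 3 controls (y axis, log2) for the 5 probe sets of Slc1a2 and the 6 of Gja1, ordered from the highest to the lowest mean level; blue marks are controls and orange marks IκBα-deficient arrays, with circles, squares and triangles for arrays 1, 2 and 3. The mean of the orange marks is below 0 for 5 of 5 Slc1a2 probe sets and above 0 for 5 of 6 of Gja1, and the marks of the groups mix for all but 1438194_at and 1438650_x_at.

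Aldoc, aldolase C, a glycolytic enzyme that astrocytes express strongly, was lower by both probe sets with groups that did not overlap. The brighter, 1451461_a_at, was at 13.95, 13.94 and 13.95 in controls and at 13.90, 13.83 and 13.91 in deficient animals, a difference of -0.063 ± 0.065 (SE), 1.04-fold lower. Probe set 1424714_at was at 9.58, 9.69 and 9.74 in controls and at 9.54, 9.50 and 9.38 in deficient animals. This was a difference of -0.197 ± 0.079 (SE), 1.15-fold lower, with an unadjusted p of 0.0392 and an adjusted p of 0.9999 (limma). The highest deficient value, 9.54, was just below the lowest control, 9.58. Both probe sets kept this direction in all alternatives that gave them a value, from -0.240 to -0.146 for 1424714_at and from -0.078 to -0.029 for 1451461_a_at. Several of these alternatives cannot change a difference.

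Aldh1l1, the folate enzyme whose promoter is widely used to label astrocytes, showed no separation. Its bright probe set 1424400_a_at was at 9.26, 9.07 and 9.19 in controls and at 9.17, 9.14 and 9.04 in deficient animals, a difference of -0.054 ± 0.080 (SE). The second, 1424401_at, was at 5.57 in controls and differed by 0.094 ± 0.142 (SE).

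Slc4a4 encodes the sodium bicarbonate cotransporter NBCe1, and 4 of its 5 probe sets were lower on average. The brightest, 1434096_at, was at 11.22, 11.25 and 11.14 in controls and at 11.15, 11.21 and 11.10 in deficient animals, a difference of -0.044 ± 0.071 (SE) with overlapping groups. The 1 whose groups did not overlap, 1421225_a_at, was at 8.39, 8.35 and 8.52 against 8.20, 8.26 and 8.28, a difference of -0.172 ± 0.075 (SE) with an unadjusted p of 0.0537 (limma). Probe set 1426432_a_at stood at 0.001 ± 0.068 (SE), and its sign turned when each array was centred on its median (-0.002). Probe sets 1452071_at (-0.112) and the dim 1450169_at (-0.071) overlapped between groups.

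Atp1b2 encodes the glial β2 subunit of the sodium pump, also known as the adhesion molecule AMOG. Its bright probe set 1435148_at was at 12.24, 12.19 and 12.20 in controls and at 12.22, 12.26 and 12.23 in deficient animals. The difference was 0.025 ± 0.064 (SE), with a 95% interval from -0.125 to 0.175. The second probe set, 1422009_at, had the smallest p of the members. It was at 6.57, 6.78 and 6.74 in controls and at 6.38, 6.52 and 6.39 in deficient animals, wholly below them. It differed by -0.266 ± 0.085 (SE), 1.20-fold lower, with an unadjusted p of 0.0153 and an adjusted p of 0.9999 (limma). Over the alternatives the difference ran from -0.330, without control array 1, to -0.125, with the choroid plexus mean as a covariate. A difference between the 2 probe sets of this gene was not tested.

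Other genes of the same pathways showed no call either. Of 58 listed genes 51 had a probe set of their own, and by the brightest of them 32 were higher and 19 lower, with a median of 0.029 beside 0.006 over all genes. At an adjusted p under 0.05 stood 0 of the 51, and 0% of the 18193 genes by the brightest probe set (limma). At an unadjusted p under 0.05 stood 4 higher (7.84%) and 0 lower, beside 2.61% and 1.06% of all genes.

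In the glutamate cycle, 10 of 16 genes were higher and 6 lower. The exchanger Slc1a4, which carries neutral amino acids such as serine, differed by 0.201 and had deficient arrays at 9.08, 9.22 and 9.10 above controls at 8.94, 8.88 and 8.98. Slc38a3, the astrocyte glutamine exporter, differed by 0.190, with deficient arrays at 9.20, 9.04 and 9.16 above controls at 8.97, 8.99 and 8.87. Their unadjusted p-values were 0.0275 and 0.0414 in the limma fit. The cystine-glutamate exchanger Slc7a11 came next by p-value, with a difference of 0.255. Of 10 other connexins and gap junction genes 7 were higher and 3 lower, and the smallest p-values were those of Gjb2 at 0.526, Panx2 at -0.155 and Gja4 at 0.090. Of 10 sodium pump and acid-base genes 6 were higher and 4 lower, and the smallest p-values were those of the chloride cotransporter Slc12a2 at 0.273, which the choroid plexus also expresses strongly, Fxyd1 at 0.151 and the potassium channel Kcnj10 at 0.088. In glycolysis and folate metabolism 9 of 15 were higher and 6 lower, and the smallest p-values were those of the lactate carrier Slc16a1 at 0.200, the glycogen synthase Gys1 at 0.109 and Pfkm at -0.155.

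**Figure D4:**
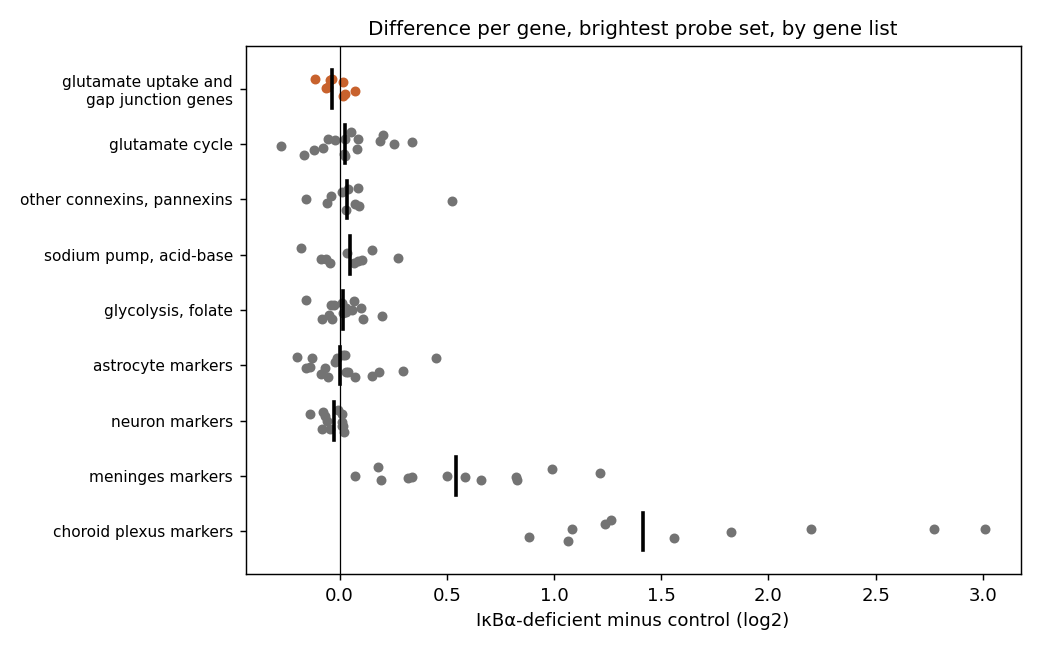
Difference between IκBα-deficient and control arrays (x axis, log2) for each gene by its brightest probe set, with 1 row of points per gene list and a black bar at the list's median; the 9 astrocyte genes of glutamate uptake and coupling are in orange and other lists in grey. The 9 genes lie between -0.114 and 0.073, while all meninges and choroid plexus markers lie above 0.

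Of 18 further astrocyte markers 9 were higher and 9 lower, with a median of 0.002. Aqp4, the water channel of astrocyte endfeet, differed by 0.449, Gfap, an intermediate filament protein, by 0.298 and Sox9, a glial transcription factor, by 0.183. Each had all deficient arrays above all controls, with an adjusted p of 0.9999 (limma). All deficient arrays were below all controls for 2 other markers, S100b (-0.140) and Ndrg2 (-0.087), which are named here after their values were seen. The groups thus did not overlap for 5 of the 18, each by its brightest probe set. Over all probe sets, dim ones included, the share was 8.45%. That share was not counted with 1 probe set per gene. The mean of the 18 markers was 10.39 to 10.47 in controls and 10.39 to 10.48 in deficient animals. Neuron markers averaged 12.64 to 12.67 in controls and 12.61 to 12.63 in deficient animals, with 5 of 12 higher and Nefm (-0.137) and Gad2 (0.019) at the ends. Oligodendrocyte markers ran from -0.011 for Mobp to 0.105 for Cldn11, with 8 of 9 higher. Microglia markers ran from -0.201 for Itgam to 0.129 for Tyrobp, and endothelial markers from -0.188 for Pecam1 to 0.166 for Cdh5. The lowest and highest differences were 0.072 for Col1a1 and 1.22 for Igf2 among meninges markers, and 0.885 for Kl and 3.01 for Clic6 among choroid plexus markers.

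Averaged over the 9 genes after centring each on its own mean, the arrays stood at 0.036, 0.002 and -0.007 for controls 1 to 3 and at 0.008, 0.017 and -0.056 for deficient animals 1 to 3. Among 11966 other genes the profile was matched best by Tab1 (r = 0.986), Ttc38 (r = 0.986) and Fam78b (r = 0.985), each over 6 arrays and picked as the highest of all, so that no p is given.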

How the data were processed

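Per the submitters' processing notes, the authors processed the arrays with RMA, and the deposited values are on the log2 scale. Neither the RMA version nor a genome build is given in the sources used here. RMA quantile normalization hides a change shared by most genes and compresses low values. The number of arrays limits the precision. Titles call the arrays biological repeats of animals. Of 45101 probe sets 64 controls were left out, and gene names came from GEO's platform annotation; all 9 genes matched RefSeq by Entrez identifier. A linear model on genotype alone was fitted to every remaining probe set (limma 3.58.1, R 4.3.3, moderated two-sided test), with Benjamini-Hochberg adjustment over all 45037. The script was tested on simulated data. Covariates were list means and the mean 3′ minus 5′ difference of 5 mouse control transcripts. Named genes were all members, the 3 smallest p of each related list and of astrocyte markers, and the ends of the other lists. Members and lists were chosen with earlier results of these data known. Figures used matplotlib 3.10.9.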

Additional observations from a re-analysis of the deposited data

How the results depend on the processing

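Over the 20 alternatives, 0 member probe sets and 0 related genes passed an adjusted p under 0.05 (limma), and the lowest adjusted p of a member was 0.837. Of the 31 probe sets 16 kept their direction in all and 15 turned in at least 1. The cause of the turns was not tested. Alternatives such as the replicate block and the trend and robust settings cannot change a difference, so no probe set could turn in them. The count at an unadjusted p under 0.05 (3) was 5 with only single-symbol probe sets tested, 5 with dim ones left out, 7 with trend and robust settings, 0 with 1 probe set per gene, 0 and 1 with the choroid plexus and meninges means as covariates, and 1 to 3 with 1 array left out. By direction, the main fit had 0 higher and 3 lower. Trend and robust settings gave 3 higher, all of Gja1, and 4 lower. Leaving out deficient array 3 gave 2 higher and 1 lower. The count without overlap (6) was 2 with 1 probe set per gene, 3 without IDs of shared probes, and 7 to 14 with 1 array left out. Smaller groups separate more easily, so the last counts cannot be set against those of all 6 arrays. The median difference (-0.027) was -0.063 with the choroid plexus mean and 0.001 with the meninges mean, and -0.031 to -0.010 with 1 array left out (-0.010 without control 1, -0.011 without control 3, -0.014 without deficient 1).

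Differences that turned were as follows. Slc4a4 1426432_a_at gave -0.002 with median centring, -0.012 with array weights and -0.063 with the choroid plexus mean. That covariate also gave -0.032 for Glul 1426236_a_at, -0.010 for Aldh1l1 1424401_at and -0.009 for Atp1b2 1435148_at. The meninges mean gave 0.008 for Slc1a2 1451627_a_at, 0.325 for Slc1a3 1426341_at, -0.018 for Glul 1426236_a_at, -0.039 for Gja1 1437992_x_at, 0.067 for Gja1 1415801_at and 0.073 for Slc4a4 1452071_at. The 3′ to 5′ gap gave 0.097 for Slc1a3 1426341_at.

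Leaving out 1 array gave ranges that crossed 0 for Slc1a2 1451627_a_at (-0.101 to 0.011) and 1433094_at (-0.088 to 0.037), and for Slc1a3 1452031_at (-0.013 to 0.043), 1426341_at (-0.409 to 0.200), 1439072_at (-0.103 to 0.097) and 1440491_at (-0.035 to 0.096). It did so for Glul 1426236_a_at (-0.030 to 0.065), Gjb6 1448397_at (-0.112 to 0.035) and Aldh1l1 1424401_at (-0.044 to 0.178), and for Slc4a4 1426432_a_at (-0.023 to 0.033), 1452071_at (-0.195 to 0.001) and 1450169_at (-0.179 to 0.026).

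With the replicate number as a block (replicate block), 4 member probe sets had an unadjusted p under 0.05 and 0 an adjusted p under 0.05. Deviations of same-numbered arrays correlated at -0.004, 0.273 and 0.033, and not every array correlated best with its own number, so the numbers were not taken to pair the animals.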
